A study of Rattus norvegicus with 12 samples.

Results

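Potassium channel subunit genes, the genes whose symbols begin with Kcn, were followed in rat laryngeal muscle after nerve transection. Members were all genes whose platform symbol is Kcn, further letters and a closing number, each read by 1 probe set with a single gene symbol. They numbered 83 of the 14329 genes tested. Each of the 83 had a single probe set, and all 83 entered the test, since no filter on dim probe sets was applied. The rule used names only, and every member is accounted for below, by name or within its family.

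In male F344 rats the recurrent laryngeal nerve was cut on one side and a 1 cm piece taken out, or it was exposed and left intact, 1 week before tissue was collected. The 12 arrays formed 4 groups of 3: posterior cricoarytenoid muscle (PCA, which opens the vocal folds) after injury, PCA of controls, the laryngeal adductor complex (AC, which closes them) after injury, and AC of controls. The labels give 10 animals in each surgery group, but not which animal or side gave an array or whether specimens were pooled, so the p-values rest on array-to-array spread alone, part of which may be technical. Rat age is not given in the sources used here. Values are log2 expression from whole-transcript arrays, with array medians of 7.11 to 7.17. A value given as a ± b is a log2 difference with its standard error (SE) from 1 limma model over all 12 arrays, n = 3 arrays per group, and a gene is said to have risen or fallen where its limma p, adjusted by Benjamini-Hochberg over all 14329 genes, was under 0.05. Levels of different genes are not compared, because each probe set has its own brightness, and the number of arrays limits the precision.

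Potassium channels let potassium ions leave or enter a cell and so set its resting voltage and end its action potentials. Pore-forming subunits fall into voltage-gated, calcium- or sodium-activated, inwardly rectifying and tandem-pore-domain types, and auxiliary subunits change how the pores open. In skeletal muscle fibres, inward rectifiers and ATP-sensitive channels act at rest and during fatigue, and muscle that has lost its nerve is known to gain apamin-sensitive small-conductance calcium-activated channels.

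After injury 4 members passed the test in both muscles: Kcnma1, Kcnj2, Kcnn3 and Kcns2, or 4.82%, against 1.54% of all genes. Their calls in AC held in 14 of 26 alternative settings for Kcnma1, 17 of 26 for Kcnj2, 20 of 26 for Kcnn3 and 15 of 25 for Kcns2. RefSeq promoter windows (build GRCr8), from 250 bases before to 50 bases after the gene's start, were at hand for 58 of the 83 members. Those of Kcnma1, Kcnn3 and Kcnj2 are shown because these genes passed in both muscles, and Kcns2 had no window. That of Kcna5 is added because the gene passed both after injury in PCA and between uninjured muscles. Kcnh2 and Kcns2 also did so but had no window. Capitals mark each match to the E-box CANNTG, the motif of basic helix-loop-helix factors such as myogenin, which reads the same pattern on both strands. 
Kcnma1, chr15:351675-351974, plus strand: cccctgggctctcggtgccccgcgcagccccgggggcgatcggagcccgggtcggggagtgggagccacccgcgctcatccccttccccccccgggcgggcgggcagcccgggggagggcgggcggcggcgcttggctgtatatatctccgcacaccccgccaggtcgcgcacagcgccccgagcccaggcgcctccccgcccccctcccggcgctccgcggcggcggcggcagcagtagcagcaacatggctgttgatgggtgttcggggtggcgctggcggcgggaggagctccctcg
Kcnn3, chr2:177234090-177234389, plus strand: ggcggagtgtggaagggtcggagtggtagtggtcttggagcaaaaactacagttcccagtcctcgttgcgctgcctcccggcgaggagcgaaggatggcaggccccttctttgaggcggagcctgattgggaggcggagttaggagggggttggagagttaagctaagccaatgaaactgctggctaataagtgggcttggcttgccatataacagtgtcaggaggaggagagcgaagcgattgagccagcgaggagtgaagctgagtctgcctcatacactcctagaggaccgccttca
Kcnj2, chr10:96559975-96560274, plus strand: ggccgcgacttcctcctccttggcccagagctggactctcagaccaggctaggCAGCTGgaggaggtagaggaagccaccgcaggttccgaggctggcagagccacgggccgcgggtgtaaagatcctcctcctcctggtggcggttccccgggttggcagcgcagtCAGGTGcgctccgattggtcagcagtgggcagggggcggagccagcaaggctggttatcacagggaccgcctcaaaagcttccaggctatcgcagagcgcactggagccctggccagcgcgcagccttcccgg
Kcna5, chr4:161043760-161044059, minus strand: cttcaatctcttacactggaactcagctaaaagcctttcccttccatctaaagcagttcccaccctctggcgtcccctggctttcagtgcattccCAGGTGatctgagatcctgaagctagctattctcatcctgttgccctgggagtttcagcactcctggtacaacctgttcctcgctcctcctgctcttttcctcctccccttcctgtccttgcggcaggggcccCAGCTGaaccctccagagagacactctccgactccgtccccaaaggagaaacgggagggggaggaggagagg
The Kcnj2 window held CAGCTG and CAGGTG, whose first bases lay at -197 and -83 from the start, and the Kcna5 window held CAGGTG at -155 and CAGCTG at -22. The Kcnma1 and Kcnn3 windows held no match. CANNTG was found in 72.1% of all 33469 windows of this length and CAGCTG, which is one form of it, in 15.1%. Those percentages count windows, and a gene may have several. Counted by gene, with a match in at least 1 window, 42 of the 58 windowed members had CANNTG and 17 had CAGCTG. Of the 13 windowed members that passed the test for injury in PCA, 5 had CANNTG and 3 had CAGCTG. A match is a run of letters, not a measured binding site.

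In injured PCA, 23 of the 83 members passed the test, 18 lower and 5 higher, and 6 of them differed at least 2-fold. That is 27.7% of members, against 25.8% of all genes tested, so the share lay near the background. Over all genes 12.5% fell and 13.3% rose. The median difference was -0.11 over the members and -0.03 over all genes. Injured and control arrays did not overlap for 21 of the 23, and for 34.9% of members in all, against 37% of genes.

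**Figure D1:**
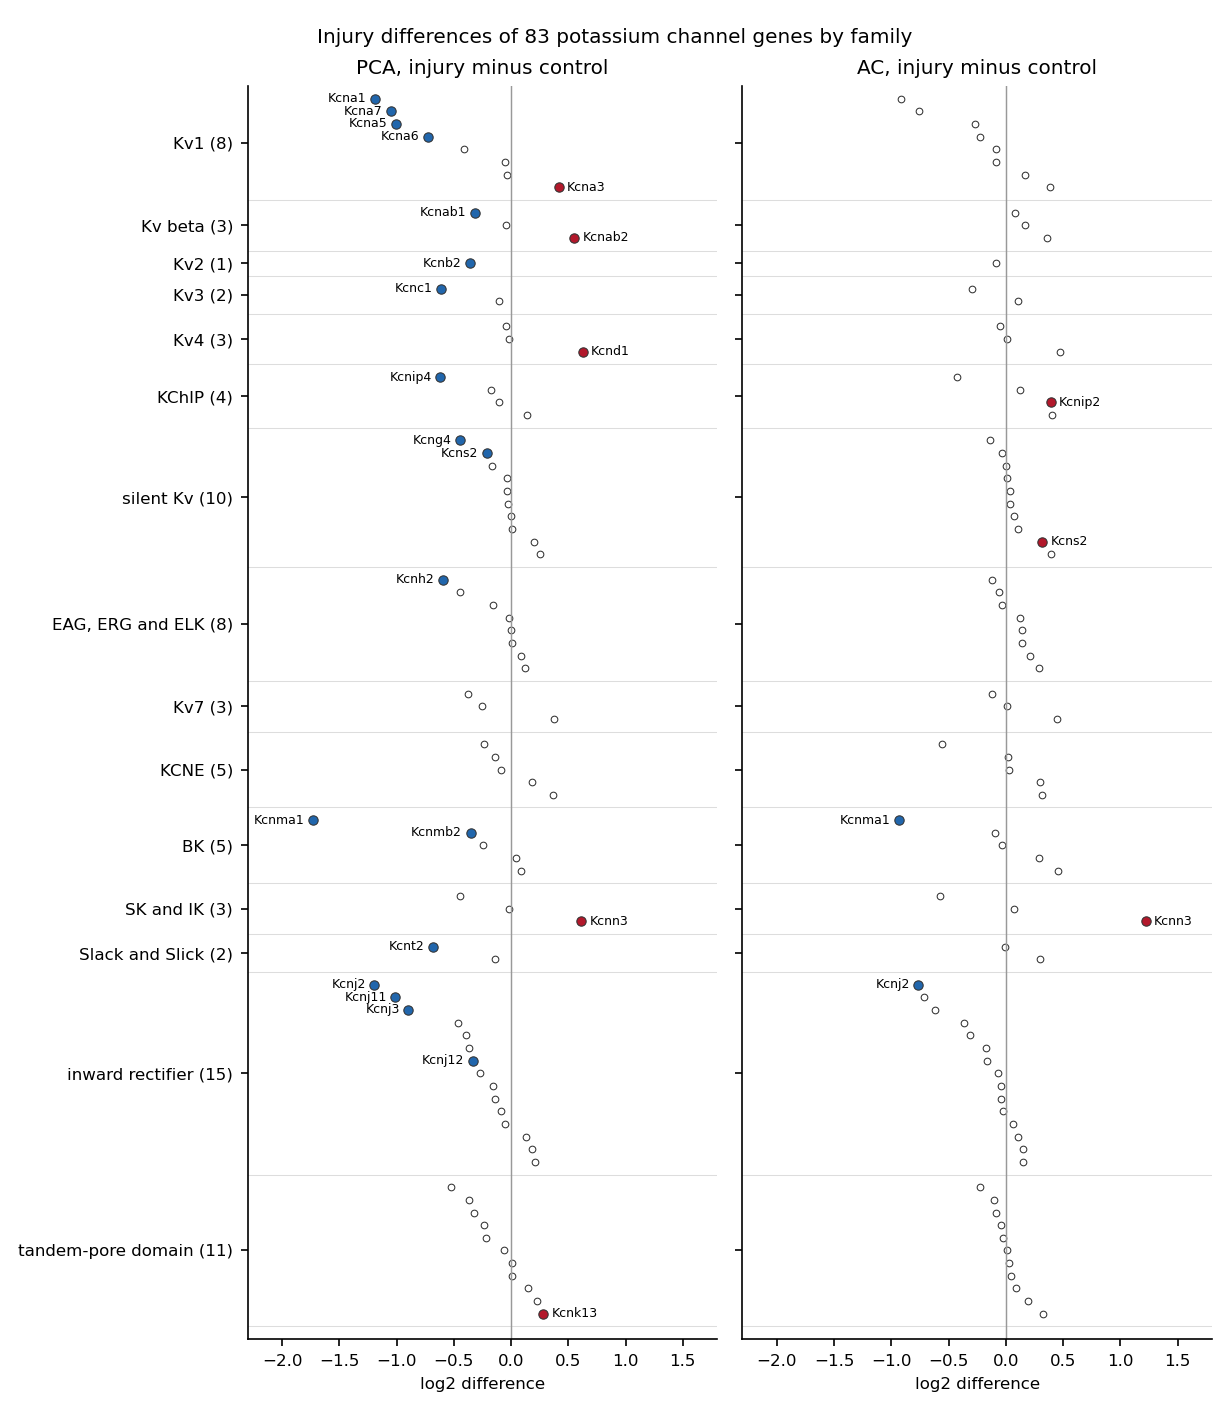
The log2 difference of injury minus control is plotted for each of 83 potassium channel genes, by family (number of members in brackets), in PCA on the left and AC on the right; within a family, genes are in order of their difference in that panel. Filled, named points passed the limma test (blue lower, red higher) and open points did not: 23 are filled for PCA and 5 for AC.

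The pore of the large-conductance calcium- and voltage-activated (BK) channel, Kcnma1, had the most negative difference of the members that fell in PCA. Kcnma1 stood at 8.58, 8.62 and 9.30 in the injured PCA arrays, against 10.60, 10.36 and 10.72 in PCA controls. In AC it stood at 9.47, 9.11 and 9.32 after injury, against 10.06, 10.53 and 10.12 in controls. The groups did not overlap in either muscle. The fall was -1.73 ± 0.20 in PCA (limma, adjusted p = 0.000317) and -0.94 ± 0.20 in AC (limma, adjusted p = 0.0429), and the difference between both effects, -0.79 ± 0.28, did not pass (limma, adjusted p = 0.191). Of its beta subunits, which tune the channel's calcium sensitivity and gating, Kcnmb2 fell in PCA by 0.35 ± 0.07 on the log2 scale, with 4.67, 4.65 and 4.65 in injured arrays, against 5.03, 4.96 and 5.04 in controls. Those values lie below the first quartiles of the arrays (5.42 to 5.54). The smooth muscle beta subunit Kcnmb1 (0.09 ± 0.17 in PCA, 0.46 ± 0.17 in AC), Kcnmb3 (0.04 ± 0.08 and 0.29 ± 0.08) and Kcnmb4 (-0.25 ± 0.24 and -0.03 ± 0.24) did not pass in either muscle. Among leucine-rich gamma partners of BK channels, Lrrc52 (-1.17 ± 0.14) and Lrrc26 (-0.94 ± 0.28) fell in injured PCA.

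Inward rectifiers, which hold the resting voltage, gave 4 members that fell and none that rose among 15 in PCA. Over all genes, 12.5% fell and 13.3% rose there, and the family was not tested as a set. Kcnj2, the Kir2.1 pore of the classical inward rectifier of muscle, stood at 7.92, 8.07 and 8.55 in injured PCA, against 9.24, 9.46 and 9.42 in controls. In AC it stood at 8.41, 8.26 and 8.29 after injury, against 9.18, 9.19 and 8.88 in controls. All injured arrays lay below all controls in both muscles. Kcnj2 fell by 1.19 ± 0.15 in PCA (limma, adjusted p = 0.000458) and by 0.76 ± 0.15 in AC (limma, adjusted p = 0.0351) on the log2 scale. Kcnj11, the Kir6.2 pore of the ATP-sensitive channel, stood at 7.18, 7.46 and 8.44 in injured PCA, against 8.54, 8.84 and 8.73 in controls. The third injured array lay just below the lowest control, whereas the others lay more than 1 log2 unit below it, and the fall was -1.01 ± 0.26 (limma, adjusted p = 0.0153). In AC, Kcnj11 was at 7.81, 7.54 and 7.82 after injury, against 8.69, 8.28 and 8.34 in controls (-0.71 ± 0.26, limma, adjusted p = 0.155), a difference without overlap that did not pass. The sulfonylurea receptor Abcc9, the muscle partner of that pore, fell in PCA (-0.26 ± 0.09), and Abcc8 (-0.29 ± 0.13) did not pass there.

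Kcnj3, a G-protein-gated inward rectifier best known from heart and brain, stood at 6.66, 7.37 and 7.56 in injured PCA, against 8.16, 8.03 and 8.09 in controls, and fell by 0.90 ± 0.23 on the log2 scale. Kcnj12, the Kir2.2 pore, stood at 8.97, 8.80 and 9.23 in injured PCA, against 9.23, 9.33 and 9.44 in controls. Its groups met at 9.23, and the fall of -0.33 ± 0.11 had a limma adjusted p of 0.0451 and passed in 11 of 26 alternative settings. In AC neither passed (Kcnj3 -0.37 ± 0.23, Kcnj12 -0.18 ± 0.11). The other 11 inward rectifiers, among them the vascular ATP-sensitive pore Kcnj8 (0.13 in PCA, 0.06 in AC) and the glial Kcnj10 (-0.09 and 0.15), lay between -0.46 and 0.21 in PCA and did not pass.

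Kcnn3, the SK3 small-conductance calcium-activated channel, is the type known to appear in denervated fibres. In AC it stood at 10.17, 10.01 and 9.82 after injury, against 9.04, 8.60 and 8.70 in controls, with no overlap. In PCA it stood at 9.52, 9.77 and 10.10 after injury, against 8.77, 9.22 and 9.56 in controls, where the lowest injured array lay below the highest control. Kcnn3 rose by 1.22 ± 0.20 in AC (limma, adjusted p = 0.0223) and by 0.61 ± 0.20 in PCA (limma, adjusted p = 0.0476), and the difference between both effects did not pass (-0.61 ± 0.29 as PCA minus AC, limma, adjusted p = 0.346). The rise in PCA passed in 11 of 26 alternative settings, with limma adjusted p from 0.0221 to 0.524. Averaged over both muscles, the rise was 0.92 ± 0.14 (limma, adjusted p = 0.00115) and passed in all 25 settings tried. The intermediate-conductance channel Kcnn4, which is known from lymphocytes, red cells and epithelia, was lower by 0.51 ± 0.15 on the log2 scale when both muscles were averaged (limma, adjusted p = 0.0242). It stood at 8.79, 7.98 and 8.74 in injured PCA, against 8.85, 8.80 and 9.19 in controls, and at 8.50, 8.31 and 8.68 in injured AC, against 8.88, 9.31 and 9.03 in controls. Over 10 markers of neutrophils and red cells the mean ran from 6.58 to 7.18 in injured AC, against 7.79 to 8.56 in controls, with 5 of 10 lower. In PCA it ran from 6.28 to 6.52 after injury, against 6.21 to 6.52 in controls, with 0 of 10 lower. Over 8 markers of airway epithelium and gland the mean ran from 8.918 to 9.344 in injured PCA, against 9.491 to 9.699 in controls. In AC it ran from 9.015 to 9.472 after injury, against 9.338 to 9.715 in controls. The test called 2 of 8 lower in PCA and 0 in AC. Squamous epithelium scores went the other way in PCA, at 9.86 to 10.50 after injury, against 7.76 to 9.47 in controls. The part of these markers in the Kcnn4 difference was not tested. Kcnn1 did not pass (-0.02 in PCA and 0.07 in AC).

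**Figure D2:**
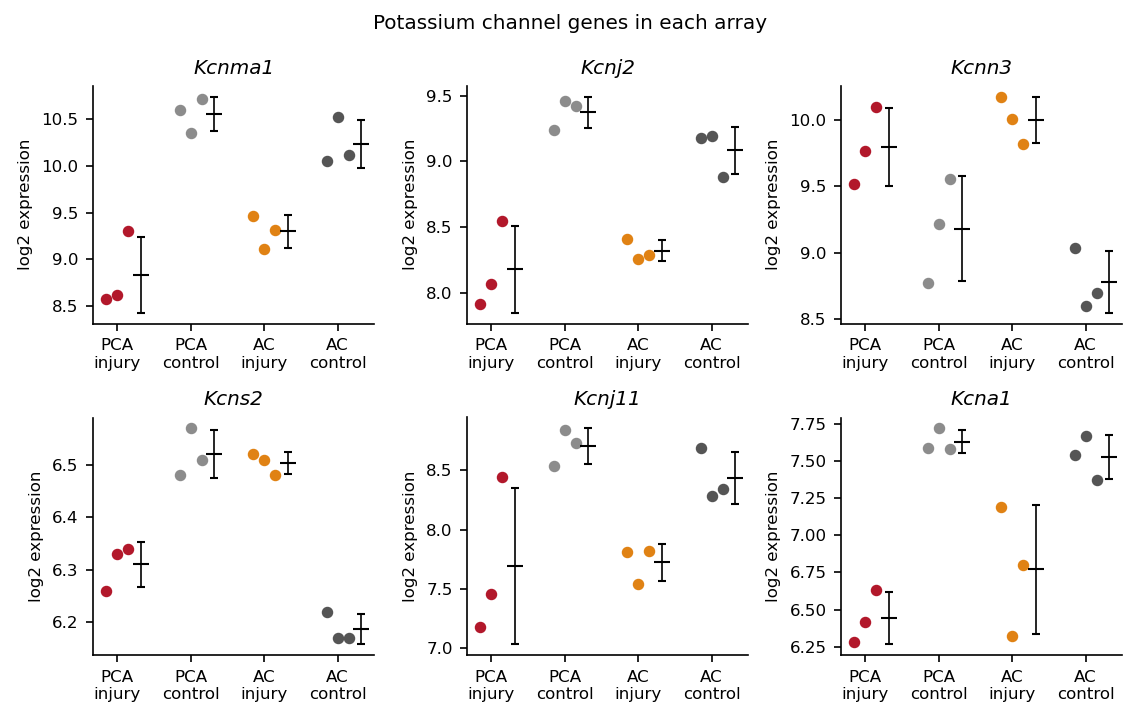
The log2 expression of 6 potassium channel genes is plotted for each array in the 4 groups of 3 (points), with the group mean and SD (bars); the axes do not start at 0. Injured arrays lie below controls in both muscles for Kcnma1, Kcnj2, Kcnj11 and Kcna1, Kcnn3 is higher after injury, and Kcns2 is lower in injured PCA and higher in injured AC than in controls.

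Among 8 pores of the Kv1 family, the shaker-type voltage-gated channels, 4 fell and 1 rose in injured PCA. The shares over all genes were 12.5% and 13.3%, and this family was not tested as a set. Kcna1 (Kv1.1), known from the axon next to the nodes of Ranvier, stood at 6.28, 6.42 and 6.63 in injured PCA, against 7.59, 7.72 and 7.58 in controls. It fell by 1.19 ± 0.18 on the log2 scale (limma, adjusted p = 0.0012). In AC it was at 7.19, 6.32 and 6.80 after injury, against 7.54, 7.67 and 7.37 in controls, without overlap, and did not pass (-0.76 ± 0.18, limma, adjusted p = 0.0593). Kcna2, its partner in the axon, did not pass (-0.41 in PCA, -0.23 in AC). It stood at 7.28, 8.05 and 7.33 in injured PCA, against 8.04, 7.94 and 7.92 in controls, and the high second array is 1 of the 3 high in thyroid and parathyroid transcripts. Without that array Kcna2 was at -0.66 (limma, adjusted p = 0.00188), and without all 3 at -0.62 (limma, adjusted p = 0.00508). Without PCA injury 1 instead it was at -0.28 (limma, adjusted p = 0.314), and without PCA injury 3 at -0.30 (limma, adjusted p = 0.278). Any part of the thyroid and parathyroid transcripts in this was not tested. Beside these values, the mean log2 over 9 markers of Schwann cells and myelin ran from 7.93 to 8.01 in injured PCA, against 8.13 to 8.18 in controls, with 2 of 9 markers lower, and that over 9 markers of motor axons from 6.54 to 6.77, against 6.63 to 6.77, with 1 of 9 higher and none lower. Their part in the result was not tested.

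Kcna7 (Kv1.7), known from skeletal muscle and heart, stood at 6.99, 7.05 and 7.84 in injured PCA, against 8.05, 8.81 and 8.17 in controls, and fell by 1.05 ± 0.26 on the log2 scale (limma, adjusted p = 0.0133). In AC it stood at 7.56, 6.97 and 7.42 after injury, against 8.48, 8.0 and 8.21 in controls, and did not pass (-0.91 ± 0.26, limma, adjusted p = 0.0901). Kcna5 (Kv1.5), a delayed rectifier of heart, vessel and muscle, stood at 6.82, 7.16 and 6.83 in injured PCA, against 8.18, 7.68 and 7.96 in controls, and fell by 1.00 ± 0.13 (limma, adjusted p = 0.0005). All injured arrays of both genes lay below all controls in both muscles. Kcna6 (Kv1.6) stood at 5.62, 5.81 and 5.68 in injured PCA, against 6.50, 6.15 and 6.64 in controls, and fell by 0.73 ± 0.20. Kcna4, Kcna10 and Kcna2 lay between -0.41 and -0.03 in PCA and did not pass.

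Kcna3 (Kv1.3), the main voltage-gated potassium channel of T lymphocytes and also found in macrophages, was the Kv1 pore that rose. It stood at 8.34, 7.98 and 7.81 in injured PCA, against 7.55, 7.68 and 7.65 in controls (0.42 ± 0.14, limma, adjusted p = 0.0458). In AC it stood at 7.71, 8.13 and 7.83 after injury, against 7.43, 7.47 and 7.61 in controls, and did not pass (0.39 ± 0.14). Kcnk13, the THIK-1 tandem-pore channel known in mouse from microglia, rose in PCA by 0.28 ± 0.09, with 7.96, 7.77 and 7.97 in injured arrays, against 7.71, 7.51 and 7.64 in controls (limma, adjusted p = 0.0449). The PCA call held in 10 of 25 alternative settings for Kcna3 and in 12 of 25 for Kcnk13. Kcnab2, a Kv beta subunit that binds Kv1 pores inside the cell, rose by 0.55 ± 0.14, with 7.49, 7.19 and 6.96 in injured PCA, against 6.45, 6.71 and 6.83 in controls. In these rows of PCA arrays the injured values all lay above the controls. The macrophage score, a mean log2 over 13 markers, ran from 9.79 to 10.21 in injured PCA, against 8.11 to 8.88 in controls, with 12 of 13 markers higher, and from 9.71 to 10.07 in injured AC, against 9.07 to 9.33 in controls, with 3 of 13 higher. Its part in the rises of Kcna3, Kcnk13 and Kcnab2 was not tested. In bulk tissue, a change in the number of cells of a type and a change of RNA per cell cannot be told apart.

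The other voltage-gated pores and their partners gave mostly small differences. Kcnd1 (Kv4.1), a fast-inactivating A-type pore, rose in PCA by 0.63 ± 0.12 (limma, adjusted p = 0.00363), with 7.35, 7.12 and 7.13 in injured arrays, against 6.48, 6.46 and 6.78 in controls. In AC it was at 7.0, 7.16 and 7.32 after injury, against 6.56, 6.66 and 6.84 in controls, and did not pass (0.47 ± 0.12, limma, adjusted p = 0.0687). The sister pores Kcnd2 and Kcnd3 lay between -0.05 and 0.01 in both muscles. Kcnc1 (Kv3.1), a pore of fast-firing neurons, fell in PCA by 0.61 ± 0.12, with 6.44, 6.52 and 6.78 in injured arrays, against 6.99, 7.23 and 7.36 in controls. Kcnb2 (Kv2.2) fell by 0.36 ± 0.11, with 5.53, 5.68 and 5.39, against 5.84, 5.87 and 5.97. Kcnab1, another Kv beta subunit, fell by 0.32 ± 0.09, with 6.53, 6.62 and 6.62, against 6.87, 6.86 and 6.99. The injured PCA arrays of these 3 genes lay below all PCA controls. Kcnc2 (Kv3.2; -0.11 in PCA, 0.11 in AC) and the beta subunit Kcnab3 (-0.04 and 0.08) did not pass.

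KChIP proteins are calcium sensors that bring Kv4 pores to the membrane. Kcnip2, the KChIP best known from heart muscle, rose in AC, with 6.53, 6.35 and 6.48 after injury, against 6.19, 5.95 and 6.05 in controls (0.39 ± 0.08, limma, adjusted p = 0.046). In PCA it stood at 6.39, 6.40 and 6.35, against 6.18, 6.18 and 6.36, and did not pass (0.14 ± 0.08). The AC call held in 7 of 25 alternative settings, with limma adjusted p from 0.0191 to 0.176. Kcnip4 fell in PCA by 0.62 ± 0.19, with 5.26, 5.08 and 5.30 after injury, against 5.70, 5.60 and 6.20 in controls.

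Kcnh2 (ERG1), the rapid delayed rectifier of heart, stood at 6.85, 6.84 and 6.63 in injured PCA, against 7.35, 7.34 and 7.42 in controls, and fell by 0.60 ± 0.08 (limma, adjusted p = 0.000749). In AC it did not pass (-0.03 ± 0.08), and the difference of both effects missed the threshold (-0.56 ± 0.12, limma, adjusted p = 0.0657). The other 7 members of its family lay between -0.45 and 0.12 in PCA. Kcnt2 (Slick), a sodium-activated pore, stood at 6.52, 6.75 and 6.06 in injured PCA, against 7.09, 7.19 and 7.10 in controls (-0.68 ± 0.16, limma, adjusted p = 0.0114), and its partner Kcnt1 did not pass (-0.14). The 3 Kv7 pores and 5 KCNE subunits gave no call in either muscle, against 25.8% of all genes called in PCA and 1.91% in AC. Kcnq5 (Kv7.5), known from skeletal and smooth muscle, rose when both muscles were averaged (0.41 ± 0.12, limma, adjusted p = 0.0319). It stood at 8.83, 9.02 and 9.39 in injured PCA, against 8.40, 8.82 and 8.90 in controls, and at 9.46, 9.08 and 9.02 in injured AC, against 8.88, 8.57 and 8.78 in controls, so that injured and control arrays overlapped in PCA but not in AC. Kcne3, an auxiliary subunit known from skeletal muscle and colon, stood at 6.87, 6.06 and 6.24 in injured PCA, against 5.84, 6.15 and 6.09 in controls, and did not pass (0.36).

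Silent Kv subunits form no channel alone and modify Kv2 pores. Kcns2 (Kv9.2) was the member whose injury effect differed between the muscles. In PCA it stood at 6.26, 6.33 and 6.34 after injury, against 6.48, 6.57 and 6.51 in controls. In AC it stood at 6.52, 6.51 and 6.48 after injury, against 6.22, 6.17 and 6.17 in controls. The 3 arrays of each injured group thus lay on opposite sides of their own controls. Kcns2 fell by 0.21 ± 0.06 in PCA (limma, adjusted p = 0.0254) and rose by 0.32 ± 0.06 in AC (limma, adjusted p = 0.032), and the difference of the effects was -0.53 ± 0.09 (limma, adjusted p = 0.0458). It was 1 of 83 members and 1 of 22 genes past that test, 1.2% of members against 0.154% of genes, and 0.0279% of genes were lower as it was. The absolute sizes are small and the difference passed in 7 of 24 alternative settings (limma adjusted p from 0.0206 to 0.545).

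Kcng4 (Kv6.4), another silent subunit, fell in PCA by 0.45 ± 0.13, with 6.94, 7.13 and 6.75 after injury, against 7.22, 7.38 and 7.56 in controls. Kcns3 (Kv9.3) rose when both muscles were averaged (0.32 ± 0.09, limma, adjusted p = 0.0225). It stood at 5.30, 5.67 and 5.41 in injured PCA, against 4.91, 5.32 and 5.38 in controls, and at 5.61, 5.63 and 5.50 in injured AC, against 5.12, 5.16 and 5.29 in controls. The remaining 7 silent subunits lay between -0.16 and 0.20 in PCA and -0.04 and 0.11 in AC, and none passed.

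In injured AC, 5 of 83 members passed, 3 higher and 2 lower, which is 6.02% of members, against 1.91% of all genes. These were Kcnn3, Kcns2 and Kcnip2, which rose, and Kcnj2 and Kcnma1, which fell. The AC arrays did not overlap for these 5, nor for 32.5% of all members, against 28.4% of genes, and the median difference was 0.01 over members and 0.02 over all genes. None of the 5 calls remained with AC injury 2, AC injury 3 or AC control 2 left out, without the 3 arrays high in thyroid and parathyroid transcripts, or with the replicate number as a block, and with single arrays left out the count ran from 0 to 9. Of the 18 members that fell in PCA, 16 had a difference below 0 in AC, of which 2 passed there. The matching share over all genes that fell in PCA was not counted, so this is not read as particular to the members.

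Other members that passed in PCA did not pass in AC, where their arrays were as follows. Kcnc1 stood at 6.73, 6.72 and 6.70 in injured AC, against 6.91, 6.93 and 7.21 in controls (-0.30 ± 0.12). Kcnab2 stood at 6.84, 7.05 and 7.12 in injured AC, against 6.55, 6.73 and 6.66 in controls (0.36 ± 0.14). Kcnk13 stood at 7.88, 8.04 and 8.01 in injured AC, against 7.66, 7.53 and 7.78 in controls (0.32 ± 0.09). The AC groups of these 3 genes did not overlap, with Kcnc1 lower and Kcnab2 and Kcnk13 higher after injury. Kcna6 stood at 6.09, 5.75 and 5.76 in injured AC, against 5.47, 6.36 and 6.02 in controls (-0.08 ± 0.20). Kcnab1 stood at 6.88, 6.82 and 6.96 in injured AC, against 6.90, 6.54 and 6.71 in controls (0.17 ± 0.09). Kcnb2 stood at 5.69, 5.53 and 5.41 in injured AC, against 5.57, 5.83 and 5.50 in controls (-0.09 ± 0.11). Of these voltage-gated pores and the beta subunit Kcnab1, each had overlapping AC groups. Kcnip4 stood at 5.72, 5.14 and 5.51 in injured AC, against 5.78, 6.16 and 5.71 in controls (-0.43 ± 0.19). Kcng4 stood at 6.69, 7.02 and 6.80 in injured AC, against 6.79, 7.07 and 7.06 in controls (-0.14 ± 0.13). Kcnmb2 stood at 4.76, 4.79 and 4.76 in injured AC, against 4.84, 4.79 and 4.97 in controls (-0.10 ± 0.07). The KChIP, the silent subunit and the BK beta subunit also overlapped between injured and control AC. Kcnt2 stood at 7.03, 7.0 and 6.91 in injured AC, against 6.76, 7.28 and 6.91 in controls (-0.00 ± 0.16). Kcnj3 stood at 7.50, 6.94 and 7.40 in injured AC, against 8.0, 7.44 and 7.50 in controls (-0.37 ± 0.23). Kcnj12 stood at 8.98, 9.16 and 8.93 in injured AC, against 9.21, 9.14 and 9.25 in controls (-0.18 ± 0.11). The sodium-activated pore and both inward rectifiers overlapped as well.

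**Figure D3:**
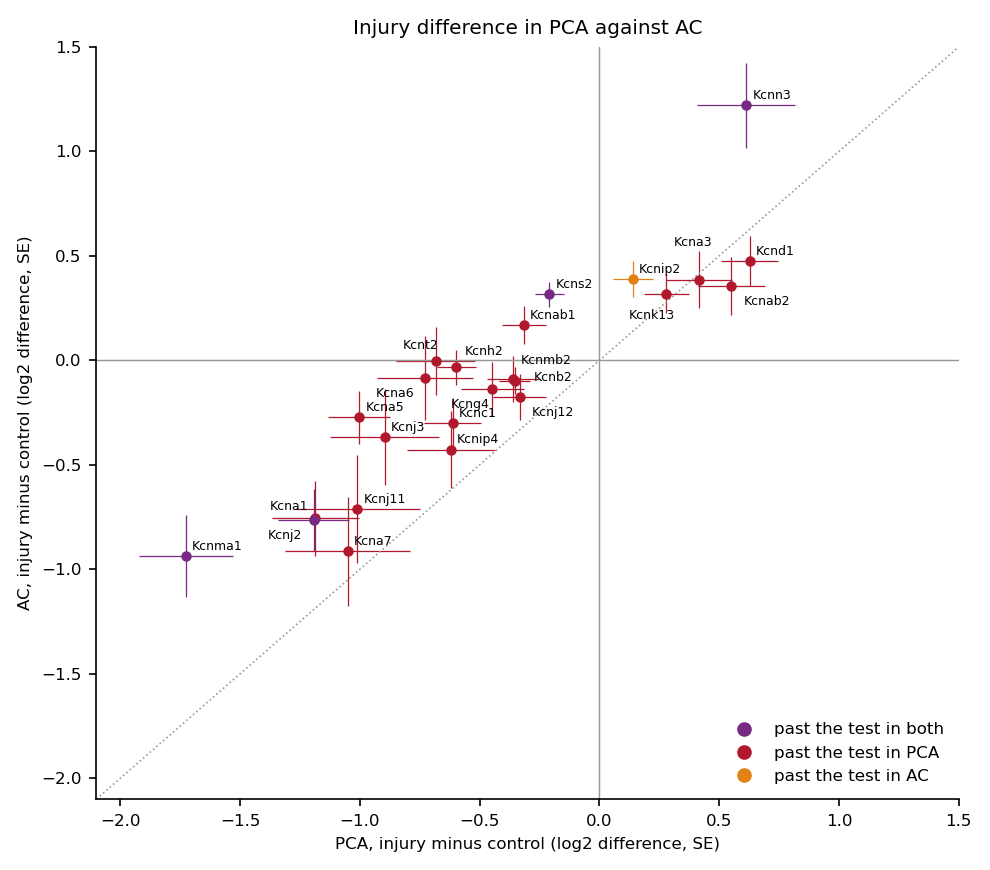
For the 24 potassium channel genes that passed the test after injury in PCA or AC, the log2 difference of injury minus control in AC (vertical) is plotted against that in PCA (horizontal), with SE bars and a dotted line of equal difference. Kcnma1 and Kcnj2 lie low in both muscles, Kcnn3 lies high in both, and Kcns2 lies left of 0 and above 0.

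When the injury effects of both muscles were averaged, 23 of 83 members passed, 15 lower and 8 higher, or 27.7%, against 26.4% of all genes. Among them, Kcnma1 was at -1.33 ± 0.14, Kcnj2 at -0.98 ± 0.11, Kcnj11 at -0.86 ± 0.18 and Kcnd1 at 0.55 ± 0.08. The falls ran beside lower fibre markers. The mean log2 over 12 skeletal muscle fibre markers ran from 11.64 to 12.37 in injured PCA, against 12.61 to 12.81 in controls, with 6 of 12 lower, and from 11.97 to 12.12 in injured AC, against 12.25 to 12.48 in controls, with none past the test. With the fibre score of each array as a covariate, Kcnma1 in PCA was at -1.20 (limma, adjusted p = 0.0448), the calls in PCA numbered 6 of 83, against 9.67% of all genes, and Kcnj11 (0.29), Kcna7 (0.09) and Kcna3 (-0.04) turned sign without passing. Other tissue also moved with injury in PCA: squamous epithelium scores were 9.86 to 10.50, against 7.76 to 9.47 in controls (9 of 10 markers higher), cartilage scores 8.11 to 8.40, against 9.30 to 9.98 (12 of 12 lower), and adipocyte scores 7.83 to 8.40, against 8.997 to 9.41 (10 of 11 lower). With the squamous score as a covariate 5 of 83 members passed in PCA, against 4.77% of all genes. Fibre and squamous scores did not overlap between injured and control PCA, so neither fit can cleanly separate score from injury.

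Partner and companion genes came from lists of known members, and their counts stand against 25.8% of all genes called in PCA, 13.3% higher and 12.5% lower. Of 16 measured partners outside the Kcn names, 7 fell and none rose in injured PCA, among them Lrrc52, the membrane scaffold Ank2 (-0.62 ± 0.09), the Kv2 partner Amigo1 (-0.69 ± 0.11) and the axonal adhesion protein Cntn2 (-0.73 ± 0.17). Their median was -0.245, against -0.03 over all genes. Of 11 genes of the sodium-potassium pump, which restores the potassium gradient, 3 rose and 2 fell: the regulators Fxyd5 (1.41 ± 0.18) and Fxyd2 (0.90 ± 0.15) rose, as did the beta subunit Atp1b3 (0.34 ± 0.08), while Fxyd7 (-0.48 ± 0.09) and Atp1b1 (-0.49 ± 0.10) fell. Of 3 hyperpolarisation-activated channels Hcn2 fell (-0.56 ± 0.11). Of 7 other channels of muscle excitation 4 fell: the chloride channel Clcn1 (-1.67 ± 0.25), the sodium channel subunit Scn4b (-1.80 ± 0.38), the release channel Ryr1 (-0.57 ± 0.18) and Cacna2d1 (-0.65 ± 0.21). In AC, limma called 0 of the 37 measured genes of these 4 lists, with 15 at an unadjusted p under 0.05, against 20.3% of all genes, where Clcn1 was at -0.93 ± 0.25 (adjusted p = 0.0816).

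Between uninjured muscles, 6 of 83 members differed, 5 higher and 1 lower in PCA than in AC, or 7.23%, against 10.6% of all genes, of which 3.24% were higher and 7.39% lower. Kcnh2 stood at 7.35, 7.34 and 7.42 in control PCA, against 6.95, 6.76 and 6.74 in control AC (0.55 ± 0.08, limma, adjusted p = 0.00357). Kcna5 stood at 8.18, 7.68 and 7.96 in control PCA, against 7.17, 7.24 and 7.27 in control AC (0.71 ± 0.13, limma, adjusted p = 0.00626). In injured animals these genes differed by -0.01 and -0.02 between PCA and AC, with Kcna5 at 7.06, 6.89 and 6.91 and Kcnh2 at 6.75, 6.83 and 6.77 in injured AC. Kcns2 was higher in control PCA by 0.33 ± 0.06 (limma, adjusted p = 0.00651), and all 3 control PCA arrays lay above the control AC arrays.

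Kcnip1, a KChIP of neurons, stood at 5.45, 5.34 and 5.70 in control PCA, against 5.28, 4.86 and 4.94 in control AC (0.47 ± 0.13, limma, adjusted p = 0.0472). Kcnk3 (TASK-1), an acid-sensitive tandem-pore channel, stood at 7.25, 7.03 and 6.69 in control PCA, against 6.48, 6.52 and 6.49 in control AC (0.49 ± 0.14, limma, adjusted p = 0.0496). The call held in 12 of 25 alternative settings for Kcnip1 and in 7 of 25 for Kcnk3. Kcng3 (Kv6.3) stood at 6.98, 7.04 and 6.85 in control PCA, against 7.27, 7.22 and 7.21 in control AC (-0.28 ± 0.07, limma, adjusted p = 0.0312). The groups did not overlap for any of the 6, nor for 32.5% of members, against 33.7% of genes. Control PCA also had higher cartilage scores (9.30 to 9.98 over 12 markers, against 8.30 to 9.08 in control AC), higher adipocyte scores (8.997 to 9.41 over 11 markers, against 7.94 to 7.995) and lower squamous epithelium scores (7.76 to 9.47 over 10 markers, against 10.47 to 10.91), with 8 of 12, 9 of 11 and 9 of 10 markers past the test. With the squamous score as a covariate limma called 0 of 83 members and 2 of 14329 genes between the control muscles. The score did not overlap between these muscles, so this fit cannot cleanly separate score from muscle. Between injured PCA and injured AC, limma called 0 of 83 members and 0 of 14329 genes, with 5 members (6.02%) at an unadjusted p under 0.05, against 3.61% of all genes.

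After injury the other 3 genes were as follows. Kcnip1 stood at 5.52, 5.42 and 5.23 in injured PCA, against 4.99, 5.21 and 5.25 in injured AC (0.24 ± 0.13). Kcnk3 stood at 6.42, 6.85 and 6.59 in injured PCA, against 6.30, 6.51 and 6.55 in injured AC (0.17 ± 0.14). Kcng3 stood at 7.23, 7.16 and 7.07 in injured PCA, against 7.27, 7.24 and 7.23 in injured AC (-0.09 ± 0.07). None of these differences passed the test.

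**Figure D4:**
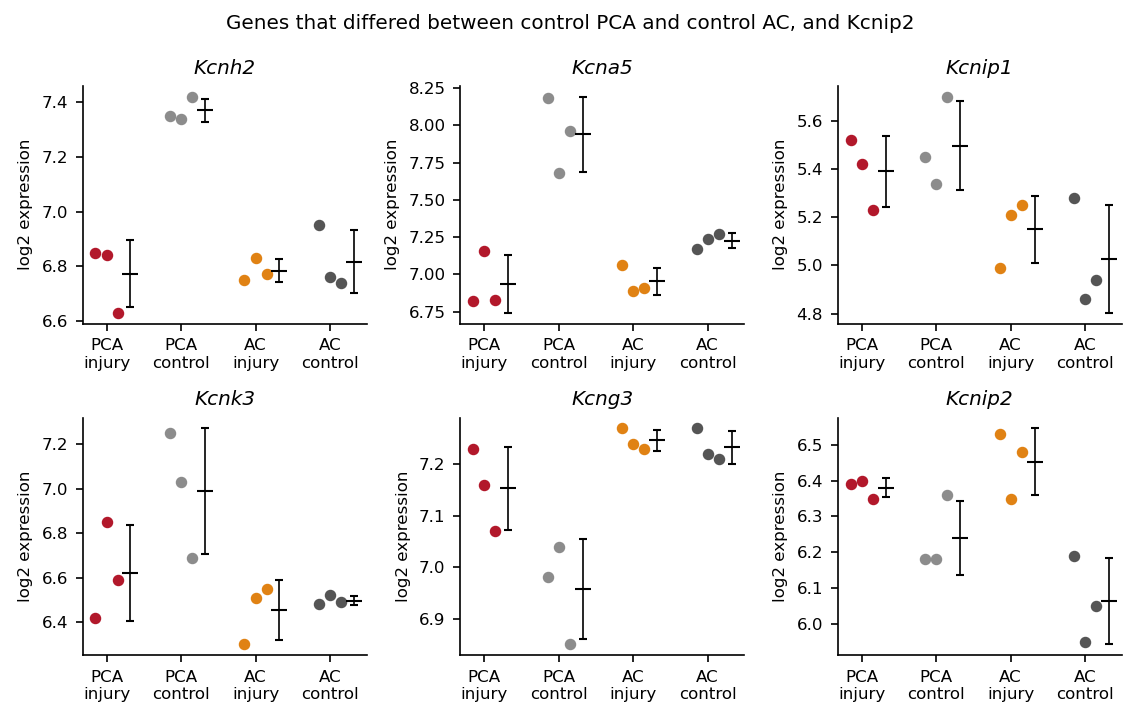
The log2 expression of 6 potassium channel genes is plotted for each array in the 4 groups of 3 (points), with the group mean and SD (bars); the axes do not start at 0. Control PCA lies above control AC for Kcnh2, Kcna5, Kcnip1 and Kcnk3 and below it for Kcng3, and Kcnip2 is the gene that rose in injured AC but did not pass in PCA.

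Several members followed single specimens rather than groups. The thyroid and parathyroid score, a mean log2 over 16 markers, reached 9.70 in PCA injury 2, 9.97 in PCA control 1 and 8.41 in AC injury 2; elsewhere, over 9 arrays, it lay between 6.33 and 7.17. Kcnip3, which encodes the calcium sensor KChIP3 or DREAM, stood at 10.59 in PCA injury 2, against 8.12 and 8.05 in the other injured PCA arrays, and at 10.64 in PCA control 1, against 8.18 and 8.47 in the other controls. In AC injury 2 it was 9.16, against 7.97 and 8.21. Kcnh7 (ERG3) stood at 6.95 in PCA injury 2, at 7.14 in PCA control 1 and at 5.76 in AC injury 2, with 5.09 to 5.62 elsewhere. Those 3 arrays were thus the highest of their groups for both genes. Kcnj16 (Kir5.1) stood at 9.11 in PCA injury 2 and 9.38 in PCA control 1, but at 7.68 in AC injury 2, beside 7.70 and 7.65. In AC controls, whose thyroid and parathyroid scores were only 6.33 to 6.51, Kcnj16 stood at 8.25, 8.89 and 7.74. It was thus not high in the thyroid-rich arrays alone. Kcnk10 (TREK-2) stood at 6.03 in PCA injury 2, 6.88 in PCA control 1 and 5.57 in AC injury 2. In all, 9 members had their group's highest value in each of the 3 arrays. The matching share over all genes was not counted, so the 9 are not read as particular to the members. None of Kcnip3, Kcnh7, Kcnj16 and Kcnk10 passed in any comparison. Without the 3 arrays 14 of 83 members passed for injury in PCA, against 16.3% of all genes.

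**Figure D5:**
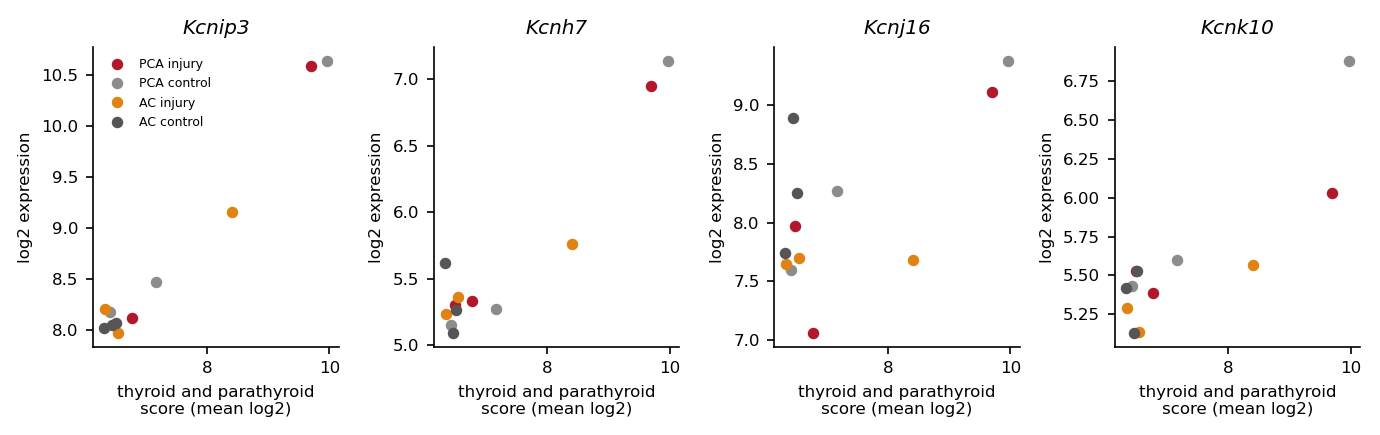
The log2 expression of 4 potassium channel genes (vertical) is plotted against the thyroid and parathyroid score, a mean log2 over 16 markers (horizontal), with 1 point per array in the 4 groups of 3. The arrays PCA injury 2 and PCA control 1, with scores of 9.70 and 9.97, have the highest 2 values of all 12 arrays in each panel.

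In all, 30 members (36.1%) passed in at least 1 of 6 comparisons, against 34% of all genes, and 53 in none. Among those 53 the injury difference ran from -0.52 to 0.36 in PCA and from -0.62 to 0.46 in AC. Of the 11 tandem-pore-domain members, 10 did not pass after injury in PCA, among them the TWIK-1 pore Kcnk1, at 9.34, 10.78 and 9.65 in injured PCA, against 10.92, 10.10 and 10.32 in controls (-0.52), and the TWIK-2 pore Kcnk6 (0.15 in PCA, 0.02 in AC). In that comparison 25.8% of all genes passed. The mean over all arrays lay below the lowest array median of 7.11 for 55 of the 83 members. That median is over all 27342 probe sets, with or without a gene symbol, and is not the median of the genes tested. Kcna1, with a mean of 7.09, ranked at percentile 37.3 of those genes. Against the median gene, 16 of the 83 members lay at or above it. Kcnn2, Kcnc4 and Kcnk5, which also have known roles in muscle or nerve, were not analysed here as single genes.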

How the data were processed

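RNA of 12 laryngeal muscle samples was measured on Affymetrix whole-transcript arrays. The deposited values are log2 expression; RMA and Partek are named, per the submitters' processing notes, with no version or order, and the log base is taken from the range of the values. RMA makes array distributions alike, so differences are relative to the other genes. Of 27342 probe sets, 15103 carry 1 gene symbol, 317 several and 11922 none in the platform annotation; 500 genes had several, of which the one with the highest mean was kept, giving 14329 genes. One linear model with 4 group means was fitted in limma 3.58.1 (R 4.3.3; lmFit, eBayes, two-sided, Benjamini-Hochberg over all genes), with 8 residual degrees of freedom. The script was tested on simulated data. Marker scores are mean log2 values over a list. All 83 members matched RefSeq by gene ID; 1 probe set naming Kcnk16 and Kcnk5 together was left out. Array values were given for members that passed any test and for members with known roles in muscle, and the others by family; from each partner list, passing genes were named. The members, marker lists and partner lists were chosen with earlier results of these data known. Alternatives covered normalisation, filters, array weights, the threshold, covariates, a replicate block and leaving out arrays.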

Additional observations from a re-analysis of the deposited data

Results flagged for a closer look

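The injury effect on Kcns2 differed between the muscles, by -0.527 on the log2 scale as PCA minus AC (limma, adjusted p = 0.0458, n = 3 arrays per group), because all 3 injured PCA arrays lay below their controls and all 3 injured AC arrays above theirs. No outlier test was run on groups of 3 arrays. Single arrays were left out in turn, arrays were weighted in 1 setting, and 3 were set apart by their thyroid and parathyroid score.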

How the results depend on the processing

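Counts are members called by limma of 83, and the cause of each change was not tested unless named. For injury in PCA (23) the count was 13 with only the groups compared, 14 without the 3 arrays high in thyroid and parathyroid transcripts, 5 with the squamous score and 6 with the fibre score as covariate, and 5 among genes at or above the median mean, where only 16 members were tested. Leaving out single arrays gave 12 (without PCA injury 1) to 22. For injury in AC (5) it was 3 with quantile normalisation, 3 with the median filter, 8 with array weights, 10 at an adjusted p under 0.1, 0 without the 3 arrays, 2 with the squamous and 1 with the fibre score, and 0 to 9 with single arrays left out. For the average effect (23) it was 7 with the filter and 7 with the fibre score. For the difference of effects (1) it was 0 with quantile normalisation, median centring, the filter, a trend in eBayes, the squamous score or without the 3 arrays, 2 with array weights, 4 at 0.1, 3 with the fibre score, and 0 to 3 with single arrays left out. For PCA against AC in controls (6) it was 0 with the filter or the squamous score, 12 with array weights, 12 with the fibre score, 14 at 0.1, and 3 (without PCA control 1 or AC control 2) to 7 with single arrays left out. With the fibre score as covariate, among values that passed with or without it, injury in PCA changed sign for Kcna3 (-0.043), Kcna7 (0.087) and Kcnj11 (0.287), the average effect for Kcnj11 (0.07) and Kcnj3 (0.001), and the control PCA against AC difference for Kcnj11 (-0.347). Fibre scores did not overlap between injured and control arrays of either muscle, nor did squamous scores between injured and control PCA. Neither score overlapped between control PCA and control AC. In these comparisons a fit with the score cannot cleanly separate it from the group. Kcnma1 in PCA passed in all 26 settings (-1.96 to -1.20), and Kcnj2 in 25 of 26. Over 18 pairs of same-numbered arrays the correlation of deviations from the group mean ran from -0.39 to 0.34, with 4 over 0.1. Same-numbered PCA and AC arrays correlated at -0.39, 0.34 and 0.27 after injury and at -0.05, -0.335 and 0.03 in controls. With groups of 3, these values cannot decide whether PCA and AC arrays came from the same animals. With the replicate number as a block the counts were 20 for PCA, 0 for AC, 22 for the average, 0 for the difference and 5 for PCA against AC in controls. The number of arrays limits precision, and dim members carry little signal over background.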
